A study of Schizosaccharomyces pombe with 12 samples.

Results

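The transcriptional response of diploid *Schizosaccharomyces pombe* to methyl methanesulfonate (MMS) was measured by comparing 3 diploid MMS libraries with 3 diploid no-treatment (NT) libraries, 6 of the 12 RNA-seq libraries of the study. The libraries were chosen from their ploidy and treatment labels, and no measured value was used. The diploid was a single strain, made by fusing protoplasts of a pair of haploids. It was homozygous for the h- mating type with the smt-0 deletion, which stops switching, so that its cells cannot mate with each other. It was also homozygous for the his3D-1 and ura4-D18 deletions and the leu1-32 mutation, and carried the complementing alleles ade6-M210 and ade6-M216. Cultures in rich medium (YES) were each split at mid-log phase into an NT portion and a portion given 0.0075% MMS, both grown on for 4 h. The other 6 libraries are haploid NT and haploid MMS, from 1 haploid strain with the same mating type and marker alleles (ade6-M210 alone at that locus), handled in the same way, and serve here for comparison and, in the joint fit, for the estimate of the spread.

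MMS methylates DNA bases. Such lesions are removed by base excision repair, and those that block replication forks can be bypassed by translesion polymerases or handled by homologous recombination. In fission yeast the replication checkpoint keeps the transcription factor MBF active, so that genes for S phase are transcribed for longer. MMS also reacts with thiols, and peroxiredoxin, thioredoxin and glutathione enzymes are known members of the stress response. Cell separation after mitosis needs glucanases, several of which are transcribed late in the cell cycle.

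Total counts ran from 16624286 to 19117356 in diploid NT and from 18079041 to 26400719 in diploid MMS, of which 1.33 to 1.68% were ERCC spike-in transcripts. The strain's markers followed its genotype, with 0 counts of *ura4+* in all 6 libraries and between 1 and 10 of *his3+*. M-cell genes were transcribed, and *mam2+*, the P-factor receptor gene of M cells, was at 206 to 256 CPM (counts scaled by library size, per 1e+06 counts) in the 6 libraries. Genes listed for P cells had counts too. Of these, *sxa1+* was at 1160 to 1620 CPM, above every M-cell gene listed, and *map4+* at 53.1 to 75.4 CPM. Among P-cell genes, the P-factor precursor gene *map2+* was at 116, 116 and 193 CPM in NT 1 to 3 and at 58.3, 47.5 and 303 CPM in MMS 1 to 3, so that diploid MMS 3 stood apart from MMS 1 and 2. The M-factor gene *mfm1+* had the same shape, at 2.92 and 3.02 CPM in MMS 1 and 2 and 11.6 CPM in MMS 3. The M-factor genes *mfm2+* and *mfm3+* did not, at 20, 26.6 and 14.5 CPM and at 19.6, 26.5 and 25.2 CPM in MMS 1 to 3. Of 12 sporulation markers tested 0 passed in either direction in the main fit. In the fit with the culture as a replicate block, given below, 1 rose and 1 fell (background 6.52% and 4.47%).

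Of 4584 genes tested, 27 were called up (0.589%) and 16 down (0.349%) in diploid MMS, at an adjusted p under 0.05 (edgeR's quasi-likelihood test, Benjamini-Hochberg) and an absolute log2 fold change (log2FC) above 0.58. Without a fold threshold 42 genes rose (0.916%) and 29 fell (0.633%). All 3 MMS libraries lay above all 3 NT libraries in each of the 27 genes and below them in each of the 16, against 13.3% and 10.4% of all genes tested, respectively. The genes were called on these same libraries, so this separation largely follows from the call and is no further evidence for it. Libraries of equal number were treated as portions of 1 culture. With the culture as a replicate block the counts were 69 up (1.51%) and 59 down (1.29%), or 299 (6.52%) and 205 (4.47%) without the fold threshold, and all 43 genes called without the block were called with it. Where a gene is said to pass only with the block, this compares edgeR's fits. DESeq2, which had no block, also passed some of these genes, namely *ctt1+*, *trr1+*, *grx1+*, *mxr2+*, *yox1+*, *tal1+*, *pgl1+*, *cut7+*, *cnp3+*, *tim15+*, *pof3+*, *bgs4+*, *put4+*, *ste11+* and *mei2+*. The counts moved with each library left out. They fell to 4 up and 3 down without diploid NT 1, 5 and 4 without NT 2, 7 and 5 without NT 3, 5 and 3 without MMS 1, and 12 and 7 without MMS 2, and they rose to 50 and 59 without MMS 3. Of the 43 genes, 41 kept an adjusted p under 0.05 without MMS 3. Only 7 kept it in each of these 6 fits, namely *tpx1+*, *cut12+*, *cul3+*, SPCC338.18, *eng1+*, *zrt1+* and *plb2+*.

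**Figure D1:**
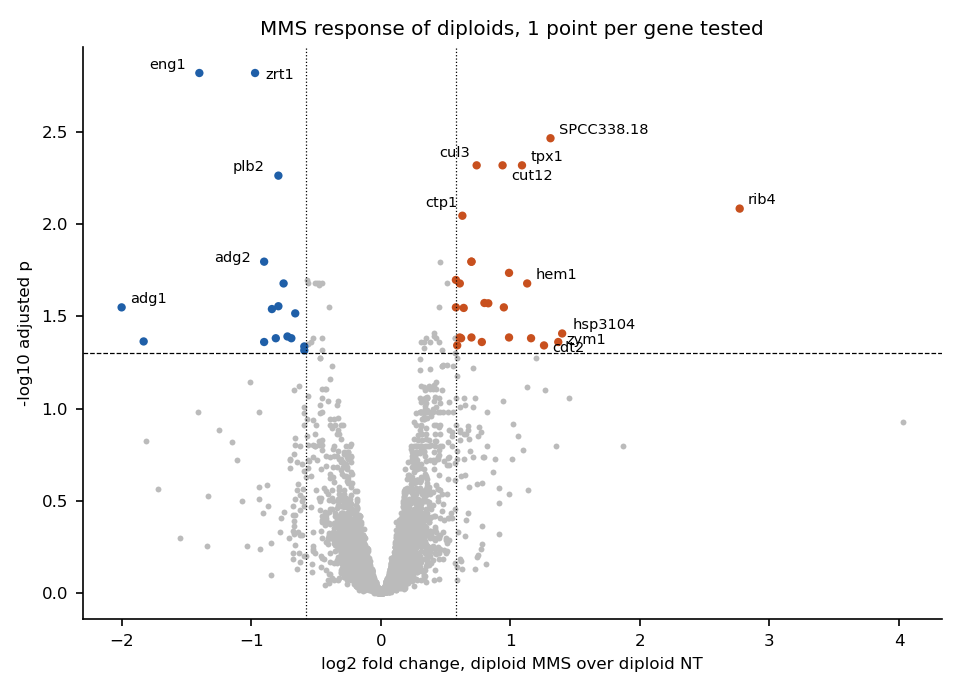
Log2FC of diploid MMS over diploid NT (x axis) against -log10 of the adjusted p (y axis), 1 point per gene tested. The dashed line is an adjusted p of 0.05, the dotted lines a log2FC of 0.58 either way, and the 27 genes called up and 16 called down are coloured; *rib4+* at a log2FC of 2.77 is the called gene farthest to the right and *adg1+* at -2.00 the one farthest to the left.

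The called gene with the largest rise was *rib4+* (SPBC409.13, chromosome II, 1165419 to 1166729 in the deposited table), which encodes lumazine synthase of riboflavin synthesis. It was at 212, 180 and 234 CPM in diploid NT 1 to 3 and at 1290, 1235 and 1753 CPM in diploid MMS 1 to 3. The groups were far apart, at means of 209 ± 27.5 and 1426 ± 285 CPM (SD, n = 3 each). The log2FC was 2.77 ± 0.384 (SE) with an adjusted p of 0.00825 by edgeR. The rest of the pathway did not follow it. Of 7 genes of riboflavin synthesis, *rib7+*, a reductase earlier in the pathway, fell from between 30.8 and 31.8 CPM to between 17.6 and 25.2 CPM (log2FC -0.59, adjusted p 0.0484 by edgeR). The other 5, *rib1+*, *rib2+*, *rib3+*, *rib5+* and *fmn1+*, had log2FC from 0.10 to 0.35 and passed no test without the block, and *rib3+*, at 0.35, passed with it (adjusted p 0.0233 by edgeR). The gene *mrps17+* overlaps it on the other strand, at 67.1 to 71.1 CPM in NT and 91.3, 82.0 and 270 CPM in MMS. Whether the counting used the strand was not stated, so reads of such pairs may not be told apart. Among other genes named here, this also touches *zrt1+* (with *sir2+*), *hem1+*, *plb2+*, *srx1+* and *hsp3104+*. Genes on the other strand likewise overlap *zwf1+*, *rmr1+*, *gti1+*, SPAC2E1P3.01, *agn1+*, SPAC110.06, *cdc1+* and *mam1+*.

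Enzymes that remove peroxides were examined as a list. Transcripts of *tpx1+* (SPCC576.03c, chromosome III, 2084942 to 2085706), the main peroxiredoxin, were at 879, 794 and 786 CPM in NT and at 1788, 1991 and 1451 CPM in MMS. All MMS values were above all NT values, with a log2FC of 1.09 ± 0.135 and an adjusted p of 0.00481 by edgeR. Of 26 antioxidant enzymes tested *tpx1+* was the 1 that rose (background 0.916%), and none fell. With libraries left out in turn 1 to 3 of the 26 rose, and with the block 10 did (background 6.52%). The median log2FC of the 26 was 0.35, against 0.01 over all genes, with 24 positive and 2 negative (53.4% positive over all genes).

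In DESeq2 5 of the 26 rose, but the share over all genes was not taken for that fit, so this count has no background. Past edgeR's test only with the block was *srx1+*, the sulfiredoxin gene, whose product repairs over-oxidized Tpx1. It was at 11.3, 10.6 and 16.6 CPM in NT and at 33.9, 30.5 and 76.2 CPM in MMS, with a log2FC of 1.87 (adjusted p 0.159, and 0.00356 with the block, by edgeR). The library MMS 3 was the highest of the 6. The catalase gene *ctt1+* went from 130, 119 and 146 CPM to 279, 307 and 367 CPM (log2FC 1.27, adjusted p 0.0798, and 0.0249 with the block, by edgeR, and 0.00192 in DESeq2). The thioredoxin reductase gene *trr1+* went from 550, 583 and 517 CPM to 971, 1239 and 1225 CPM (log2FC 1.06, adjusted p 0.14, and 0.0228 with the block, by edgeR, and 0.0171 in DESeq2). In both genes the groups stood apart. The glutaredoxin gene *grx1+* (log2FC 0.94), the glutathione peroxidase gene *gpx1+* (0.53), the mitochondrial superoxide dismutase gene *sod2+* (0.44), the thioredoxin gene *trx1+* (0.42), the methionine sulfoxide reductase gene *mxr2+* (0.41) and the peroxiredoxin gene *pmp20+* (0.45) passed in edgeR only with the block, and of these DESeq2 passed *grx1+* and *mxr2+* (adjusted p 0.00749 and 0.0291). The glutathione transferase gene *gst1+* ran the other way, at a log2FC of -0.51 (adjusted p 0.159, and 0.07 with the block, by edgeR). The flavohemoprotein gene *yhb1+* was at 1677 to 2398 CPM in the 6 libraries with a log2FC of 0.06 and an adjusted p of 0.948 by edgeR.

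NADPH feeds these enzymes, and *zwf1+*, whose glucose-6-phosphate dehydrogenase opens the pentose phosphate pathway, rose. It was at 738, 728 and 626 CPM in NT and at 1201, 1309 and 887 CPM in MMS (log2FC 0.70 ± 0.141, adjusted p 0.0412 by edgeR). The lowest MMS library, MMS 3, was still above every NT library. It was the 1 of 9 pathway genes to rise, and none fell (background 0.916% up and 0.633% down). With the block the transaldolase gene *tal1+* (0.43) and the lactonase gene *pgl1+* (0.27) joined it and 1 gene fell (background 6.52% up and 4.47% down). The median of the 9 was -0.05.

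Among aldehyde-handling enzymes, *hsp3104+*, a DJ-1 family glyoxalase, was at 35.6, 27.9 and 41.9 CPM in NT and at 82.6, 65.3 and 130 CPM in MMS (log2FC 1.40 ± 0.276, adjusted p 0.0392 by edgeR). Of 7 glyoxalase and DJ-1 family genes tested it was the 1 that rose (background 0.916%), and the median log2FC was 0.24. With the block 2 rose (background 6.52%). The genes *hsp3101+*, *hsp3102+* and *hsp3103+* ran the other way, at -0.31, -0.39 and -0.27, and *hsp3105+* was at 0.38. None of these passed in either fit. The glutathione-dependent formaldehyde dehydrogenase gene *fmd1+* rose from between 168 and 204 CPM to between 282 and 305 CPM (log2FC 0.61, adjusted p 0.0412 by edgeR). Of 11 aldo-keto reductases tested 1 rose, *yak3+*, from 317, 263 and 289 CPM to 695, 552 and 476 CPM (log2FC 0.99 ± 0.159, adjusted p 0.0184 by edgeR). Over all genes 0.916% did. With the block 5 of the 11 rose, against 6.52% of all genes, and the median of the list was 0.47. The dehydrogenase gene SPAC2E1P3.01 rose by a log2FC of 0.99 as well, to between 329 and 497 CPM from between 184 and 223 CPM (adjusted p 0.0412 by edgeR).

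The metallothionein gene *zym1+* was at 240, 159 and 251 CPM in NT and at 722, 524 and 436 CPM in MMS (log2FC 1.37 ± 0.293, adjusted p 0.0436 by edgeR). The zinc importer gene *zrt1+* fell, from 180, 183 and 156 CPM to 89.2, 96.7 and 79.4 CPM (log2FC -0.97 ± 0.0983, adjusted p 0.00152 by edgeR), with no overlap between groups. These were the 2 of 22 zinc, iron and copper genes to pass, 1 in each direction, against 0.916% up and 0.633% down over all genes, and the median of the 22 was -0.01. With the block 2 rose and 4 fell, against 6.52% and 4.47% of all genes. The 5-aminolevulinate synthase gene *hem1+*, for the opening step of heme synthesis, rose from 817, 789 and 978 CPM to 1973, 2198 and 1479 CPM (log2FC 1.13 ± 0.196, adjusted p 0.021 by edgeR). It was the 1 of 17 heme and TCA cycle genes to do so, and 3 did with the block.

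**Figure D2:**
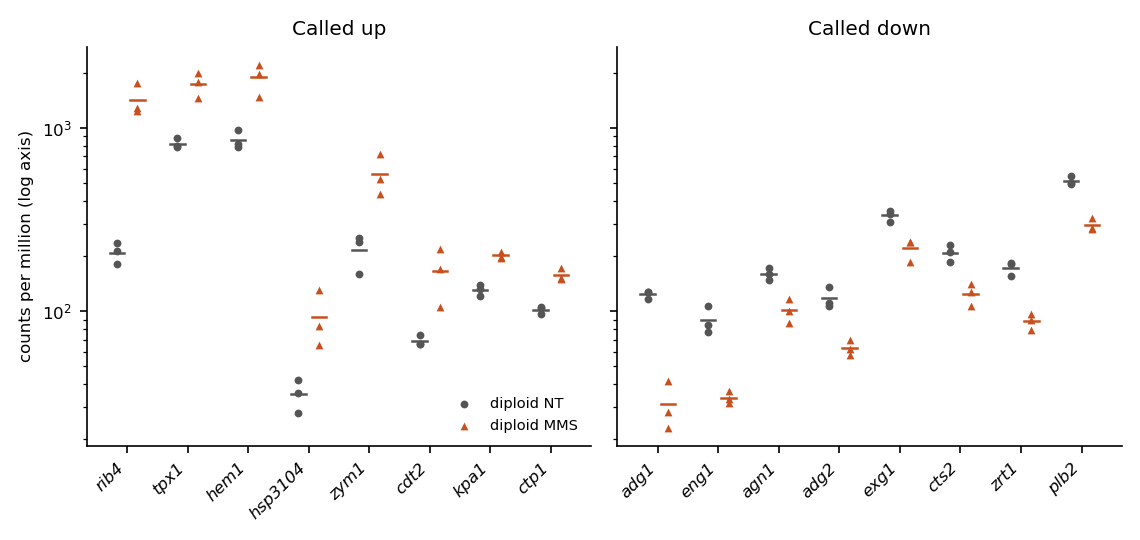
CPM (log y axis) of 8 genes called up and 8 called down in each diploid library, with NT as circles, MMS as triangles and a line at each group's mean. In none of the 16 genes, which were called on these same libraries, do the NT and MMS libraries overlap. The mean of *rib4+* goes from 209 to 1426 CPM and that of *adg1+* from 124 to 31.0 CPM.

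MBF target transcripts were examined as a group because MBF acts in S phase and under replication stress, and because the study names them. Of 13 tested, 2 rose (background 0.916%), 0 fell and the median log2FC was 0.61. A further member, *dut1+*, was listed at 0 in all 6 libraries. Between 198 and 213 genes were at 0 in each diploid library, and a count of 0 is not shown to mean that a gene had no transcripts. With the block 7 of the 13 rose (background 6.52%). In 9 of the 13 all MMS libraries were above all NT libraries, against 13.3% of all genes tested.

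The 2 that rose were *cdt2+* and *ctp1+*. The gene *cdt2+* (SPAC17H9.19c, chromosome I, 2033768 to 2035673) encodes the substrate receptor with which the Cul4 ubiquitin ligase degrades the ribonucleotide reductase inhibitor Spd1. It was at 66.5, 73.7 and 66.0 CPM in NT and at 170, 219 and 105 CPM in MMS (log2FC 1.26 ± 0.271, adjusted p 0.0455 by edgeR). The gene *ctp1+*, whose product starts the resection of broken ends, was at 103, 96.5 and 105 CPM in NT and at 172, 150 and 152 CPM in MMS (log2FC 0.63 ± 0.0898, adjusted p 0.00902 by edgeR). For *ctp1+* the 3 MMS libraries were close together, whereas for *cdt2+* MMS 3 was the lowest of them.

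Members past edgeR's test only with the block were *cdc18+*, *cdc22+*, *tos4+*, *yox1+* and *ssb1+*, of which DESeq2 passed *yox1+* (adjusted p 0.0172). The gene *cdc22+*, for the large subunit of ribonucleotide reductase, was at 333, 366 and 362 CPM in NT and at 646, 657 and 398 CPM in MMS (log2FC 0.68, adjusted p 0.265, and 0.0244 with the block, by edgeR). The gene *cdc18+*, for the replication licensing factor, went from 39.7, 33.5 and 45.8 CPM to 79.1, 76.9 and 62.3 CPM (log2FC 0.87, adjusted p 0.22, and 0.0244 with the block, by edgeR). In both genes MMS 3 was nearest to NT. The gene *tos4+* (log2FC 0.78, adjusted p 0.253, and 0.00652 with the block, by edgeR) had the same shape, at 403, 434 and 265 CPM in MMS. For the MBF co-repressor gene *yox1+* the log2FC was 0.61 (adjusted p 0.0977, and 0.00578 with the block, by edgeR), and for *ssb1+*, the large subunit of replication protein A, it was 0.30 (0.379, and 0.0268 with the block). The licensing gene *cdt1+* was at 24.4, 21.2 and 26.4 CPM in NT and at 50.4, 53.0 and 29.4 CPM in MMS, and passed in neither fit (log2FC 0.88, adjusted p 0.187, and 0.0599 with the block, by edgeR).

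The remaining members were *mrc1+*, *mik1+*, *cig2+*, *suc22+* and *nrm1+*, at log2FC of 0.20, 0.26, 0.28, 0.13 and -0.01, and none passed in either fit. Within cultures the median log2 ratio of MMS to NT over the 13 members was 0.59, 0.61 and 0.19 in numbers 1, 2 and 3. Over all genes the same medians were at most 0.03. In library MMS 3, where the MBF targets were lower, the P-cell gene *map2+* and the M-factor gene *mfm1+* were higher than in any other diploid library. The M-factor gene *mfm2+* was lower there than in any other. Histone transcripts had a median ratio of -0.42 in number 3 against 0.14 and 0.27 in numbers 1 and 2. The part of these differences in the result was not tested.

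**Figure D3:**
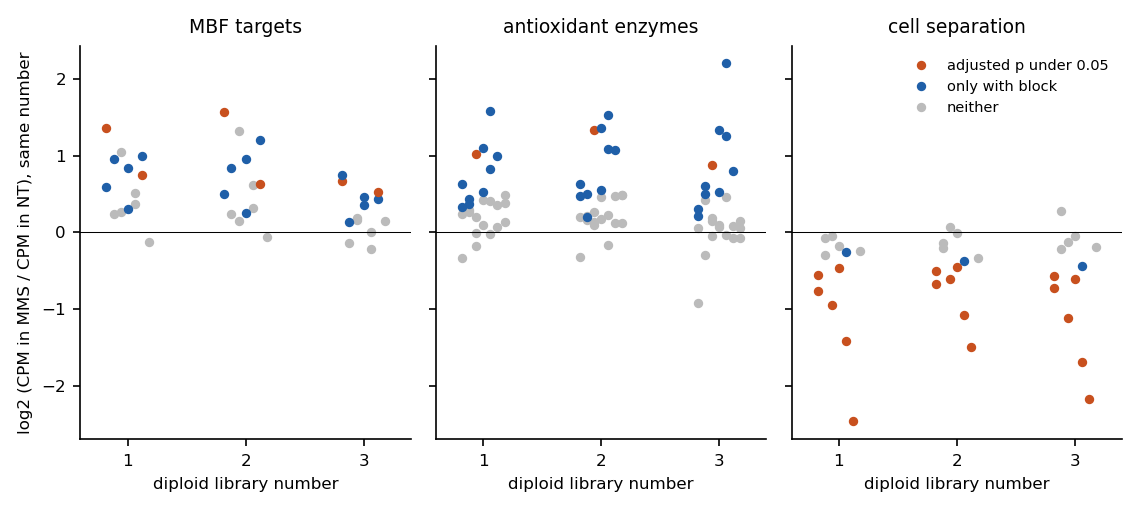
Log2 ratio of CPM in MMS to CPM in NT for diploid libraries of the same number (x axis), 1 point per list member, for MBF targets, antioxidant enzymes and cell separation genes. Orange marks an adjusted p under 0.05, blue a pass of edgeR's test only with the culture as a block and grey neither; the median over MBF targets is 0.59, 0.61 and 0.19 in numbers 1, 2 and 3, and that over cell separation genes -0.38, -0.42 and -0.50.

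MBF binds the MluI cell cycle box, whose letters ACGCGT read the same on both strands. The box was searched in the 300 bases before each gene's start, taken as the more upstream of the starts in the deposited table and in RefSeq (ASM294v3). It was found in 127 of 4855 genes (2.62%) and in 4 of the 13 MBF targets tested (*cdt2+*, *cdc22+*, *tos4+* and *ssb1+*). The sequences are shown to place the boxes of genes that rose or passed with the block. Each runs 5′ to 3′ from 20 bases before the outermost box to the base before the gene's start, with the box in capitals. The stretches are chrI:2035705-2035846, minus strand, for *cdt2+*, chrI:4226888-4226957, plus strand, for *cdc22+* and chrI:1922444-1922542, plus strand, for *tos4+*.
cdt2: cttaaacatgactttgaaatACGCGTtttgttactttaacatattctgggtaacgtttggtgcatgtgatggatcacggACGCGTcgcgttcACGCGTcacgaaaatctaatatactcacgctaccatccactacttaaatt
cdc22: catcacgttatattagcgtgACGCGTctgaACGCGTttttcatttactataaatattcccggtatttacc
tos4: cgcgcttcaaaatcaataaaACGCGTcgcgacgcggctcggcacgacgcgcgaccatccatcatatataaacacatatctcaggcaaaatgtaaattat
Counted from the gene's start, with -1 for the base before it, the 3 boxes of *cdt2+* begin at -122, -63 and -50 and the 2 of *cdc22+* at -50 and -40. A match is a description of these letters and says nothing of binding.

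Genes of DNA repair outside the MBF list moved little as groups. Among 16 homologous recombination genes *ctp1+*, given above, was one that rose (background 0.916%), and none fell (background 0.633%). The median of the 16 was 0.01. The gene *rad54+*, for a translocase of the same pathway, passed in edgeR only with the block (log2FC 0.42, adjusted p 0.137, and 0.0124 with the block, by edgeR). The helicase gene *srs2+* was at 18.8 to 19.9 CPM in NT and 13.7 to 22.6 CPM in MMS (log2FC -0.12, adjusted p 0.823 by edgeR).

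The translesion polymerase kappa gene *kpa1+* (SPCC553.07c) rose from 133, 140 and 121 CPM to 198, 211 and 195 CPM (log2FC 0.62 ± 0.127, adjusted p 0.0416 by edgeR). The gene *swp1+* overlaps it on the other strand. None of 12 genes of alkylation and base excision repair and none of 22 genes of postreplication and nucleotide excision repair passed in either direction, with medians of -0.06 and 0.04. With the block 1 of the 12 fell, and 1 of the 22 rose and 1 fell (background 6.52% up and 4.47% down). Of 43 DNA replication genes 1 rose, *cdc1+*, the small subunit of polymerase delta, from between 188 and 202 CPM to between 246 and 276 CPM (log2FC 0.41, adjusted p 0.0392 by edgeR). Of 19 checkpoint genes 1 rose, the cyclin-dependent kinase gene *cdc2+*, from 179, 178 and 178 CPM to 257, 247 and 225 CPM (log2FC 0.45 ± 0.0841, adjusted p 0.0283 by edgeR). These 2 were below the fold threshold, and their lists had medians of -0.02 and -0.05. Over all genes 0.916% rose without the block.

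Genes of mitosis and of protein degradation were among those with the smallest p. The gene *cut12+* (SPBC649.05, chromosome II, 541153 to 543168), for a spindle pole body protein needed to form a bipolar spindle, was at 183, 163 and 202 CPM in NT and at 386, 326 and 344 CPM in MMS. Its log2FC was 0.94 ± 0.12 with an adjusted p of 0.00481 by edgeR, and the groups were well apart. The spindle checkpoint kinase gene *bub1+* rose from 203, 222 and 205 CPM to 307, 301 and 290 CPM (log2FC 0.51 ± 0.0876, adjusted p 0.021 by edgeR), below the fold threshold. Of 25 spindle and kinetochore genes these 2 rose and none fell (background 0.916% up and 0.633% down), and the median was 0.00. With the block 4 rose and 2 fell, against 6.52% and 4.47% of all genes. The kinesin gene *cut7+* was among the former (log2FC 0.37, adjusted p 0.0769, and 0.0244 with the block, by edgeR) and the centromere protein gene *cnp3+* among the latter (-0.38, 0.059, and 0.00885 with the block).

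The cullin gene *cul3+*, the scaffold of a ubiquitin ligase that uses BTB proteins as adaptors, rose from 160, 136 and 161 CPM to 269, 245 and 247 CPM (log2FC 0.74 ± 0.094, adjusted p 0.00481 by edgeR). The mitochondrial import gene *tim15+* overlaps it on the other strand and had a log2FC of 1.02 (adjusted p 0.121, and 0.000801 with the block, by edgeR). Of 19 ubiquitin ligase genes *cul3+* and *cdt2+* rose (background 0.916%), and with the block 5 did (background 6.52%). The F-box gene *pof3+*, at 56.2, 58.0 and 59.8 CPM in NT and 108, 112 and 75.9 CPM in MMS, was one of the latter (log2FC 0.77, adjusted p 0.134, and 0.0101 with the block, by edgeR). None of 37 proteasome genes passed without the block, although 35 had a positive log2FC (53.4% of all genes did) and the median was 0.20. With the block 6 rose (background 6.52%). The proteasome regulator gene *fub2+*, which is not in that list, rose from between 279 and 296 CPM to between 419 and 572 CPM (log2FC 0.78 ± 0.166, adjusted p 0.0436 by edgeR).

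Several other genes called up were in none of the lists. SPCC338.18, annotated as an uncharacterized protein, was at 11.3, 8.49 and 10.9 CPM in NT and at 26.5, 21.3 and 28.1 CPM in MMS (log2FC 1.31 ± 0.15, adjusted p 0.00343 by edgeR), and of the genes called up it had the smallest p. The uncharacterized gene SPBC1271.08c went from between 64.6 and 66.9 CPM to 167, 162 and 111 CPM (log2FC 1.16, adjusted p 0.0416 by edgeR). The meiotic recombination protein gene *rmr1+* (SPCC1442.04c) rose from between 288 and 357 CPM to 582, 460 and 825 CPM (log2FC 0.95, adjusted p 0.0283 by edgeR). The gene *gti1+*, which induces gluconate uptake, rose by a log2FC of 0.70 (adjusted p 0.016 by edgeR) and the aspartate aminotransferase gene *caa1+* by 0.59 (0.0455). The AMMECR1 family gene SPAC688.03c, the uncharacterized gene SPBC19G7.18c, the ribosome assembly gene *rsa1+* and the SPX domain gene *spx2+* made up the rest, at log2FC of 0.83, 0.64, 0.61 and 0.58.

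A pair of the called genes lie near each other by the left end of chromosome II. The enolase gene *eno102+* (SPBPB21E7.01c, 58136 to 59704) rose from 123, 96.1 and 120 CPM to 236, 191 and 165 CPM (log2FC 0.80 ± 0.145, adjusted p 0.0268 by edgeR). The catechol O-methyltransferase gene *cmt2+* (SPBPB21E7.04c, 64487 to 65620) rose from 853, 769 and 1007 CPM to 1371, 1389 and 1504 CPM (log2FC 0.70 ± 0.107, adjusted p 0.016 by edgeR). Named after its values were seen, *aes1+* (SPBPB21E7.07), a phenazine biosynthesis family gene of the same stretch, was at 128, 113 and 115 CPM in NT and at 394, 376 and 137 CPM in MMS (log2FC 1.35, adjusted p 0.159, and 0.0267 with the block, by edgeR). Only 1 of 18 glycolysis and fermentation genes, *eno102+*, rose (background 0.916%), and the median of that list was -0.15.

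Cell separation genes were, in the fit without the block, the list with the most members that fell, while with the block 16 ribosomal protein and 10 transporter genes fell against 7 of them. Of 12 tested, 6 fell (background 0.633%) and 0 rose, with a median log2FC of -0.43, and 11 of the 12 were negative. Over all genes tested 53.4% had a positive log2FC. In 9 of the 12 every MMS library was below every NT library, against 10.4% of all genes tested. With libraries left out in turn, between 1 and 6 of the 12 fell, and with the block 7 did (background 4.47%).

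The gene *adg1+* (SPAPJ760.03c, chromosome I, 5265435 to 5266589) was at 127, 117 and 128 CPM in NT and at 23.2, 41.6 and 28.3 CPM in MMS. Its groups did not come near each other, and the log2FC was -2.00 ± 0.373 with an adjusted p of 0.0283 by edgeR. The gene *eng1+* (SPAC821.09, chromosome I, 998686 to 1002361), for the endo-1,3-beta-glucanase that dissolves the primary septum, was at 84.1, 77.2 and 106 CPM in NT and at 31.5, 36.6 and 33.1 CPM in MMS. Its log2FC was -1.40 ± 0.135 with an adjusted p of 0.00152 by edgeR, and it fell in every fit with a library left out. The gene *agn1+*, for the endo-1,3-alpha-glucanase that removes the cell wall around the septum, fell from 147, 160 and 172 CPM to 86.4, 101 and 116 CPM (log2FC -0.66 ± 0.126, adjusted p 0.0305 by edgeR).

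The remaining members that fell were *adg2+*, *adg3+* and *exg1+*. The gene *adg2+* was at 111, 106 and 135 CPM in NT and at 57.6, 69.6 and 62.5 CPM in MMS (log2FC -0.90, adjusted p 0.016 by edgeR). The beta-glucosidase gene *adg3+* fell from between 254 and 263 CPM to between 171 and 192 CPM (log2FC -0.51, adjusted p 0.021 by edgeR), and the exo-glucanase gene *exg1+* from between 307 and 353 CPM to between 186 and 240 CPM (-0.59, 0.0461). The glucan synthase gene *bgs4+* passed in edgeR only with the block (log2FC -0.36, adjusted p 0.114, and 0.0168 with the block, by edgeR). The anillin-like gene *mid2+* was at -0.26 and *cfh4+* at -0.24, both with no overlap between groups, and neither passed. The GTPase gene *rho4+* and the regulator gene *sep1+* were at 0.04 and -0.03. Within cultures the median log2 ratio over the 12 genes was -0.38, -0.42 and -0.50, so that number 3 did not stand apart here. The chitinase gene *cts2+*, outside the list, fell from 185, 211 and 230 CPM to 107, 127 and 140 CPM (log2FC -0.75 ± 0.126, adjusted p 0.021 by edgeR).

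**Figure D4:**
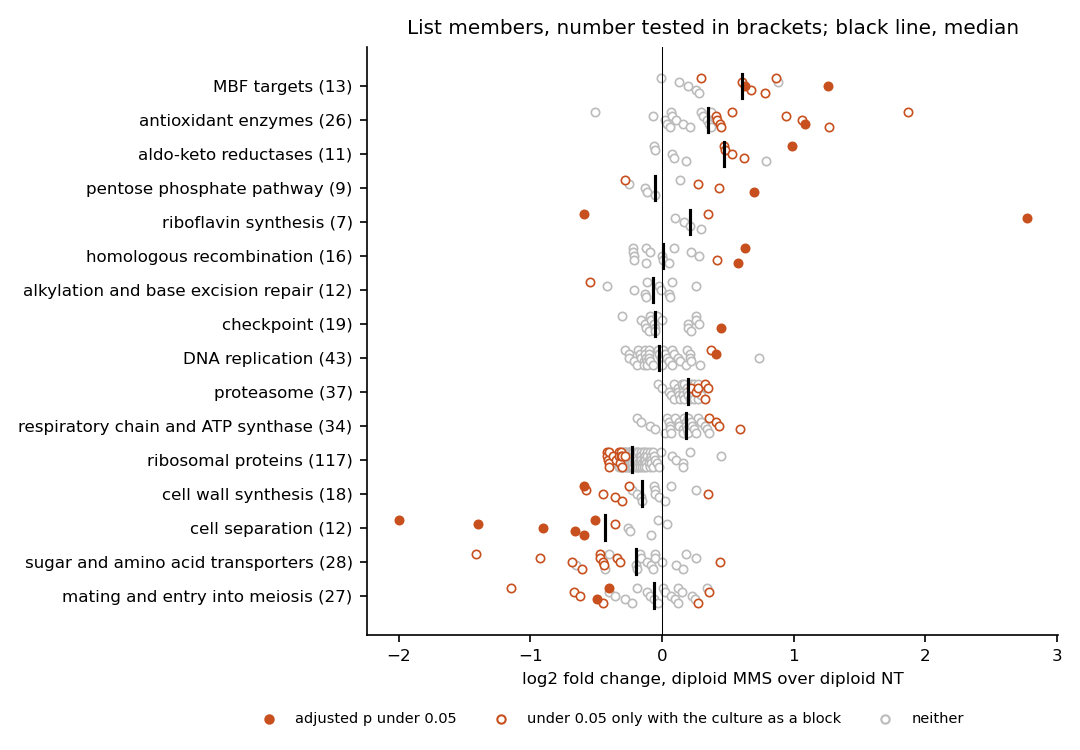
Log2FC of diploid MMS over diploid NT (x axis) of the tested members of 16 gene lists (rows), with a line at each median. Filled points passed an adjusted p of 0.05, open orange points passed edgeR's test only with the culture as a block, and grey points passed neither; the medians run from 0.61 for MBF targets to -0.43 for cell separation.

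Outside the cell separation list, the phosphate transporter gene *pho842+* (SPAC23D3.12) went from 331, 351 and 227 CPM to 180, 183 and 125 CPM (log2FC -0.90 ± 0.191, adjusted p 0.0436 by edgeR). The phospholipase gene *plb2+* (SPAC1786.02, chromosome I, 3033828 to 3037249) went from 500, 543 and 494 CPM to 285, 321 and 280 CPM (log2FC -0.79 ± 0.104, adjusted p 0.00547 by edgeR), with no overlap. The dihydroxyacetone kinase gene *dak2+* and the MIP channel gene SPAC977.17 overlap on opposite strands near the left end of chromosome I, and both fell (log2FC -0.81 and -0.79, adjusted p 0.0416 and 0.0279 by edgeR). Their reads cannot be told apart without the strand.

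The amidase gene SPAC869.01, near the right end of chromosome I, was low throughout, at 5.93, 5.60 and 2.26 CPM in NT and at 1.58, 1.28 and 1.01 CPM in MMS (log2FC -1.83 ± 0.383, adjusted p 0.0433 by edgeR). SPAC27E2.11c, a gene specific to *Schizosaccharomyces*, was at 2690, 2748 and 2385 CPM in NT and at 1777, 1742 and 1331 CPM in MMS (log2FC -0.69, adjusted p 0.0416 by edgeR). The gene *meu31+* and the uncharacterized SPAC110.06 were lower by log2FC of -0.72 and -0.84, with adjusted p of 0.0407 and 0.0289 by edgeR. Of the 16 genes called down 13 are on chromosome I, which holds 2082 of the 4584 genes tested, and 0 are on chromosome III, which holds 828.

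None of 28 sugar and amino acid transporter genes passed without the block, and the median was -0.19. With it 10 fell (background 4.47%) and 1 rose. The proline transporter gene *put4+* was at 153, 176 and 76.4 CPM in NT and at 48.5, 63.1 and 41.1 CPM in MMS (log2FC -1.41, adjusted p 0.104, and 0.00335 with the block, by edgeR). The amino acid transporter gene *isp5+* was at 748, 745 and 274 CPM in NT and at 409, 399 and 117 CPM in MMS (log2FC -0.93, adjusted p 0.58, and 0.00329 with the block, by edgeR). For *isp5+* the groups overlapped, because both libraries of number 3 were low, and each MMS library was below the NT library of its own number. The genes *urg1+* and *urg2+*, which act in uracil breakdown and were named after their values were seen, had the same shape. Transcripts of *urg1+* were at 7138, 6017 and 2302 CPM in NT and at 2904, 2607 and 615 CPM in MMS (log2FC -1.34, adjusted p 0.554, and 0.00866 with the block, by edgeR). The glucose transporter gene *ght5+* (log2FC -0.61, adjusted p 0.2, and 0.0205 with the block, by edgeR) was at 534, 537 and 539 CPM in NT and at 426, 359 and 269 CPM in MMS.

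Of 27 genes of mating and entry into meiosis 6 fell and 2 rose in the block fit (background 4.47% and 6.52%), and the median was -0.06. Without the block 2 fell and 0 rose (background 0.633% and 0.916%). They were *mam1+*, the transporter that exports M-factor, from 71.7, 78.8 and 70.4 CPM to 49.7, 53.9 and 53.8 CPM (log2FC -0.49 ± 0.0822, adjusted p 0.021 by edgeR), and the agglutinin gene *map4+*, from between 69.7 and 75.4 CPM to between 53.1 and 56.8 CPM (-0.40, 0.0283). Both were below the fold threshold. The regulator genes *ste11+* and *mei2+* passed in edgeR only with the block. The former was at 186, 205 and 196 CPM in NT and at 125, 119 and 125 CPM in MMS (log2FC -0.67, adjusted p 0.0798, and 0.00692 with the block, by edgeR). The latter, which starts meiosis, was at 50.9, 51.2 and 51.9 CPM in NT and at 21.9, 14.2 and 33.2 CPM in MMS (log2FC -1.15, adjusted p 0.152, and 0.0193 with the block, by edgeR). For both genes the groups did not overlap.

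Several large groups had small shifts that few or no members carried past the test. Ribosomal protein genes had a negative log2FC in 111 of 117 tested with a median of -0.23, while 53.4% of all genes tested had a positive one. Of these genes 0 fell without the block (background 0.633%) and 16 did with it (background 4.47%). The median ratio over them was -0.16, -0.07 and -0.45 in numbers 1, 2 and 3, so that number 3 was the lowest. A further 14 ribosomal protein genes were listed at 0 in all 6 libraries, which is not shown to mean that they had no transcripts. Respiratory chain and ATP synthase genes had a median of 0.18, with 30 of 34 positive, and a median ratio of 0.26, 0.28 and -0.06 in numbers 1, 2 and 3. Without the block 0 of the 34 passed, and with it 4 rose (background 6.52%). For chaperones 0 of 25 passed in either direction (median -0.04), while with the block 6 fell and 1 rose (background 4.47% and 6.52%). For the general stress response, genes that many stresses induce through the kinase Sty1, 1 of 21 rose (*zym1+*, above) and 1 fell, the calcium pump gene *cta3+* (log2FC -0.45, adjusted p 0.0484 by edgeR), against 0.916% and 0.633% of all genes, with a median of 0.13. With the block 4 rose and 3 fell, against 6.52% and 4.47%.

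The response of haploids, measured in 6 libraries that share none with the diploid comparison, ran in the same direction. All 27 genes called up in diploids had a positive log2FC in haploids and all 16 called down a negative one, while 72.1% of all genes tested had the same sign in both. The medians were 0.80 in diploids and 0.83 in haploids for the genes called up, and -0.80 and -0.65 for those called down. These genes were chosen for passing in diploids, a choice that favours larger changes there. The medians, and the counts of smaller rises and larger falls given below, therefore do not rank the responses by size. For *hsp3104+* the log2FC was 1.40 in diploids and 2.64 in haploids, for *tpx1+* 1.09 and 1.53, for *zwf1+* 0.70 and 1.22, and for *plb2+* -0.79 and -0.18. The rise was smaller in diploids for 12 of the 27 genes called up. Among the others were *zym1+* (1.37 in diploids and 0.77 in haploids), *cut12+* (0.94 and 0.61) and *cul3+* (0.74 and 0.38). The fall was larger in diploids for 11 of the 16 called down. For the MBF targets the median log2FC was 0.61 in diploids and 0.84 in haploids.

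The difference between the responses was tested as an interaction of ploidy and MMS, and 0 of 4584 genes (0%) passed an adjusted p of 0.05 in edgeR, where the smallest was 0.999. At an unadjusted p under 0.05 there were 155 genes, or 626 with the block, of which 0 passed after adjustment. DESeq2 called 1 gene. This was SPAC26F1.07, an NADPH-dependent aldo-keto reductase, at 282, 210 and 271 CPM in diploid NT and at 384, 336 and 341 CPM in diploid MMS (log2FC 0.48, adjusted p 0.0584 by edgeR). In haploids it went from 203, 203 and 196 CPM to 453, 487 and 479 CPM (log2FC 1.24). The difference, diploid minus haploid, was -0.76 ± 0.153 in edgeR with an unadjusted p of 0.000376, and its adjusted p in DESeq2 was 0.042. The next smallest p of the interaction belonged to *plb2+* (-0.61, p 0.00147), SPCC584.03c (0.41, 0.00192), SPCC1393.12 (-0.64, 0.00206) and *ftm6+* (1.18, 0.00265), all unadjusted p of edgeR's model. A p that misses the threshold does not show that the ploidies respond alike. The difference was -0.12 ± 0.378 for *cdt2+*, -0.53 ± 0.371 for *cdc22+* and -1.08 ± 0.425 for *cdt1+* (edgeR, ± SE).

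**Figure D5:**
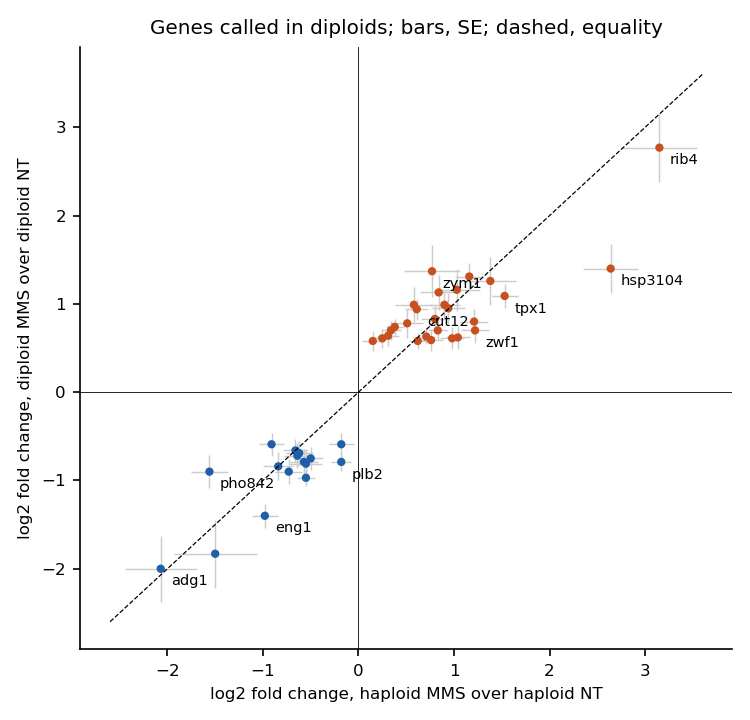
Log2FC of MMS over NT in haploids (x axis) and in diploids (y axis) for the 43 genes called in diploids, with bars for the SE and a dashed line for equality. All 27 genes called up lie above 0 on both axes and all 16 called down below 0 on both; *hsp3104+* (2.64 in haploids, 1.40 in diploids) is the called gene farthest below the line.

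Since the values above are relative to all transcripts, the total amount was set against the ERCC spike-ins, of which 60 had counts in every library. The *S. pombe* counts per spike-in, relative to the diploid NT mean, were 1.05, 1.04 and 0.913 in NT and 0.936, 0.900 and 1.12 in MMS, and the groups overlapped. The ratio of diploid MMS to NT was 0.985 ± 0.139 (SD carried from both groups, n = 3 each; two-sided exact permutation p = 0.9, where 0.1 is the smallest possible). With counts scaled to the spike-ins the median log2FC of all genes was 0.02, and 2 genes were called up (*rib4+* and *zym1+*) and 1 down (*adg1+*). That fit used all 12 libraries, and haploid NT 1 was at 0.781 on the same scale, against 0.390 and 0.434 in haploid NT 2 and 3. The log2FC of *eng1+* was -1.39 there and -1.40 in the main fit (adjusted p 0.068 and 0.00152 by edgeR). For *zrt1+* it was -0.98 and -0.97 (0.184 and 0.00152). The part of haploid NT 1 in the lower counts was not tested.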

How the data were processed

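PolyA RNA of 12 *S. pombe* samples (3 for each ploidy with and without MMS, from cultures divided between both) was sequenced after equal numbers of cells were harvested and ERCC spike-ins added. The authors deposited raw counts per gene, made with STAR 2.7.0e and featureCounts. The version of the latter, the build, the annotation release and the strand setting were not stated. The table held 4857 genes and 92 ERCC rows, which took 1.33 to 1.68% of diploid counts and were left out of library sizes and tests. A pair of reading frames left out in the study's methods was also dropped, as were genes that had under 5 reads in at least 2 libraries, which left 4584 genes.

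All 12 libraries were fitted together with edgeR 4.0.16 (R 4.3.3; TMM, quasi-likelihood test, Benjamini-Hochberg) with a mean per condition, a common spread and no block, and diploid MMS was contrasted with diploid NT. DEGs needed an adjusted p under 0.05 and a log2FC beyond 0.58 either way. CPM are counts divided by the TMM-scaled library size. The labels do not say how separate the cultures of a group were, so p-values measure the spread between these libraries. In the fit with a replicate block each culture, that is each replicate number within a ploidy, had its own term. Deviations from the group means correlated at 0.56, 0.441 and 0.577 between diploid NT and MMS libraries of the same number and at -0.555 to 0.217 between those of different numbers, and the methods describe cultures divided between NT and MMS, so the numbers were taken to pair the libraries. Alternatives were DESeq2 1.42.0, other scalings and filters, the spike-ins, the 6 diploid libraries alone, and each library left out in turn.

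Gene lists were described by counts and medians, with no set test. Members, lists and tests were chosen with earlier results of these data known. Genes were named where they were among the 15 largest called changes each way with groups that did not overlap, the 10 smallest adjusted p, the 5 members of each list with the smallest adjusted p, the MBF list, genes the study names, or the 5 smallest p of the interaction; all other genes named, among them *rad54+*, *tim15+*, *isp5+*, *ght5+* and the further genes called, were chosen after their values were seen. Gene coordinates are those of the deposited table. Of 4857 IDs 4855 matched RefSeq (ASM294v3), and 4841 of them had the same 3′ end, so upstream sequence was read from that genome. Tables and figures used Python 3.11.15, pandas 2.3.3, numpy 2.4.6 and matplotlib 3.10.9. The model fits were tested on simulated data. Some genes and a promoter site are not reported here.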

Additional observations from a re-analysis of the deposited data

Results flagged for a closer look

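The MMS response of SPAC26F1.07, an NADPH-dependent aldo-keto reductase gene, differed between ploidies in DESeq2, by a log2 difference of -0.75 (diploid minus haploid, adjusted p 0.042). In edgeR it was -0.76 ± 0.153 (SE, unadjusted p 0.000376) with an adjusted p of 0.999. All 3 MMS libraries were above all 3 NT libraries in each ploidy, at 336 to 384 against 210 to 282 CPM in diploids and 453 to 487 against 196 to 203 CPM in haploids. It was chosen out of 4584 genes tested.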

How the results depend on the processing

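The counts of 27 genes called up and 16 called down depended on the fit. DESeq2 called 58 up and 27 down, spike-in scaling 2 and 1, the replicate block 69 and 59, and the 6 diploid libraries with the block (added after seeing the data) 57 and 41. The 6 diploid libraries alone called 25 up and 9 down, with 21 list members past the test. A 2-fold threshold left 8 and 3, and no fold threshold gave 42 and 29. With libraries left out in turn the counts ran from 4 to 50 up and from 3 to 59 down, lowest without diploid NT 1 and highest without MMS 3. Of 664 distinct list members, 28 passed in the fit reported, against 65 in DESeq2, 3 with spike-in scaling, 141 with the block, 59 with the 6 libraries and the block, and 5 to 73 with libraries left out. Over all genes tested 0.916% rose and 0.633% fell in the fit reported, and 6.52% and 4.47% with the block. The counts of list members are given to compare fits and are no result about the lists. The interaction had 1 gene in DESeq2 and 0 otherwise. Among the 122 genes tracked one by one, the block changed the call of 47, all newly past the threshold, spike-in scaling took 53 below it, and the 6 diploid libraries alone took 30 below it and 6 past it. Signs turned for *nrm1+* (-0.01), to 0.02 with spike-in scaling, 0.02 without diploid NT 3, 0.05 without MMS 1 and 0.04 without MMS 2 (range -0.12 to 0.05), for *srs2+* to 0.03 (range -0.33 to 0.03) and for *yhb1+* to -0.04 (range -0.04 to 0.21) without MMS 2, and none of these passed the test. The cause of these changes was not tested. A difference that missed the threshold is not shown to be absent.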

Other observations

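The gene *yip12+*, singled out after its values were seen, was near the floor in diploid NT, at 0.87, 1.01 and 1.13 CPM, and at 22.5, 12.6 and 14.1 CPM in diploid MMS (log2FC 4.03, adjusted p 0.118, and 0.0416 with the replicate block, by edgeR). In haploids it was at 1.25, 0.869 and 11.4 CPM in NT and at 10.8, 0.908 and 0.708 CPM in MMS, so that the libraries of a group differed there by as much as the diploid groups did.

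Of the 137 genes tested that lie within 100 kb of a chromosome end (2.99% of all tested), 4 were called up and 3 down, and 10 and 11 with the block. Over all genes tested 0.589% were called up and 0.349% down, and 1.51% and 1.29% with the block.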
